A study of Mus musculus with 17 samples.

Results

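Old and young haematopoietic stem cells (HSCs) of control mice were compared by RNA-seq. The comparison covers 7 of the 17 libraries in the study, 3 from old control and 4 from young control mice, chosen by the sample titles, and all genes counted in them. All mice were of strain C57BL/6 Jrj, aged 8 to 12 weeks in the young groups and over 18 months in the old groups. The other 10 libraries were 5 from young mice given 1 intraperitoneal injection of CCCP at 0.3 mg/kg, a compound that uncouples mitochondria, and 5 from old mice given 5 daily injections of Mito-Q at 2 mg/kg, an antioxidant that accumulates in mitochondria. Bone marrow was enriched for c-kit, and live SLAM-HSCs, that is Lin- Ckit+ Sca1+ CD48- CD150+ cells, were sorted by flow cytometry into trizol. Libraries were made with the Nextera XT kit at a reduced volume. The labels do not say whether control mice received a vehicle, whether a library is 1 mouse or a pool, or how many cells were sorted. What the p-values measure is thus the spread among these libraries, part of which may be technical.

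HSCs are rare marrow cells that are mostly quiescent and renew all blood lineages for life. With age the phenotypic HSC pool in mice is known to expand, to carry platelet and myeloid primed genes, and to give less lymphoid output per cell. Immediate early genes, such as Fos and Egr1, are transcribed within minutes of many stimuli without new protein synthesis, and their transcripts decay quickly. Feedback regulators, such as phosphatases and IkB proteins, follow them and switch the signal off.

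Between 5649611 and 8120443 reads per library fell in genes. Values below are CPM, a gene's reads as a share of a library size scaled by the trimmed mean of M-values (TMM), and 3 reads correspond to 0.298 to 0.653 CPM. One library of each control group stood apart. Of the reads that were counted to a gene or matched no counted feature, 65.2% matched none in old control 1. This share was 22.2% and 25.5% in the other old controls and 34.4 to 44.1% in the young controls. Where in the genome those reads lay is not known, since the counting settings are not given. Young control 3 had the fewest genes with at least 10 reads, 13105 against 16658 to 18631 in the other young controls, and a summed level of mitochondrial DNA encoded genes of 31230 CPM. The other young controls had a lowest value of 7593 CPM on that sum, and the old controls ranged from 6207 to 18280 CPM. No pair of libraries was a duplicate: the smallest chi-square per degree of freedom between 2 libraries of a group was 20.9.

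The gate genes were present as the sort requires. Kit, the stem cell factor receptor, lay at 660, 538 and 462 CPM in old controls 1 to 3 and at 1343, 1072, 690 and 1402 CPM in young controls 1 to 4. Slamf1, which encodes CD150, lay at 85.3 to 104 CPM in old against 46.5 to 55.0 CPM in young HSCs. Neither difference passed the test (edgeR quasi-likelihood adjusted p = 0.13 and 0.18), although the groups did not overlap for either gene. Cd48 was at or below 0.714 CPM in old against 4.64 CPM in young HSCs. Ly6a, which encodes Sca1, ranged from 317 to 820 CPM in old against 185 to 352 CPM in young HSCs, with overlap (adjusted p = 0.060).

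Defining markers of lymphoid, monocytic and mast cells were near 0. Among the B cell markers Cd79a and Ms4a1 and the T and NK cell markers Cd3e, Cd3g and Ncr1, the highest value in a control library was 12.7 CPM (Ms4a1 in old control 1). It was 9.55 CPM for Cx3cr1, C1qa, Adgre1 and Siglech of monocytic and dendritic cells, and 8.70 CPM for Mcpt8, Prss34 and Fcer1a of mast cells and basophils. The 18 neutrophil and secondary granule genes tested held no called gene by edgeR. At an unadjusted edgeR p below 0.05, 1 was lower, and DESeq2 called 1 lower. Over all 24523 genes tested, 1659 were higher and 1828 lower at that unadjusted p. The summed level of that list (Neutrophil and secondary granule) was 2318 CPM in young control 1, 276 to 469 CPM in the other young controls, and 699 to 1009 CPM in old controls. S100a8 stood at 484, 60.9, 37.6 and 101 CPM in young controls 1 to 4, against 229 to 429 CPM in old controls. Camp, Ltf and Ngp were also highest in young control 1, at 153, 205 and 546 CPM. In old controls they ranged from 26.9 to 44.8, 12.0 to 20.9 and 56.4 to 120 CPM. In the other young controls they ranged from 9.57 to 19.7, 0.218 to 38.5 and 28.1 to 85.7 CPM. The summed level of 19 erythroid genes tested was 2006 to 4205 CPM in old against 2073 to 2522 CPM in young HSCs, again with no called gene by edgeR or DESeq2, and with 1 higher and 1 lower at an unadjusted p below 0.05. Cxcl12, a stromal gene, stood at 27.95 CPM in old control 1 and at most 0.177 CPM in the other old controls. The stromal genes Lepr and Col1a1 stood at 12.1 and 11.4 CPM in old control 1. They were at most 0.571 and 0.190 CPM in the other old controls. In young controls Cxcl12, Lepr and Col1a1 reached 3.41, 10.4 and 7.18 CPM.

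Among the lists of other cell types, called genes were Vwf and Cldn5 (endothelial), Flt3 (also on the dendritic cell list), Klrb1c and Spp1, with none on the B cell, mast cell, neutrophil or erythroid lists by edgeR. DESeq2 called none on the B cell and mast cell lists either, and at an unadjusted p below 0.05 these had 2 higher and 1 lower gene, respectively. Klrb1c, the NK1.1 receptor, stood at 46.9, 59.2 and 37.8 CPM in old against 4.86, 2.73, 6.09 and 9.79 CPM in young HSCs (log2 fold change 3.03), the 1 called of 17 T, NK and innate lymphoid genes. Its call was lost without young control 1, young control 2 or old control 2 (edgeR adjusted p up to 0.096). Spp1, which encodes osteopontin, stood at 0.476, 0.762 and 1.41 CPM in old against 10.4, 31.1, 24.4 and 8.99 CPM in young HSCs (log2 fold change -4.39), the 1 called of 17 stromal genes. Its call was lost without young control 1, young control 2 or any 1 old control (edgeR adjusted p up to 0.19). The part of other cells in the results was not tested.

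A gene is described as called, higher or lower, where its Benjamini-Hochberg adjusted p from edgeR's quasi-likelihood test was below 0.05. Of 24523 genes tested, 128 were higher (0.522%) and 287 lower (1.17%) in old control HSCs, 1.69% in all. The median log2 fold change, old minus young, was 1.70 among the higher and -1.93 among the lower genes, against 0.16 over all genes tested. Every old library lay above every young library for 114 of the 128 higher genes, and below for 284 of the 287 lower genes. Over all genes tested, 5.04% had such a gap upwards and 6.5% downwards. The balance of the calls moved with the scaling: 44.5% of the called genes were higher with upper-quartile factors, against 30.8% with TMM, and the median of all genes was 0.28 with those factors. With TMM that median turned to -0.35 without old control 1. In bulk libraries, fewer cells of a type and less RNA per cell cannot be told apart.

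A part of the HSC ageing signature rose. This list holds 63 genes that are commonly reported as higher in old HSCs, and 20 of them were called higher and 0 lower (31.7%). Its median log2 fold change was 1.42. The summed level of the list was 8084 to 10630 CPM in old controls and 3415 to 5452 CPM in young controls, with no overlap. The called members were Clu, Clca3a1, Gpr183, Cavin2, Nupr1, Selp, Mt1, Plscr2, Zg16, Gstm2, Sbspon, Ramp2, H2-Eb1, Sult1a1, Vwf, Cd38, Cpne8, Aldh1a1, Tmem176b and Ehd3. Between 14 and 19 members were called when a control library was left out, and 14 were called in each of those 7 fits.

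Clu encodes clusterin, a secreted chaperone, and lies at chr14:65968483-65981547 of GRCm38 (ENSMUSG00000022037). It stood at 287, 420 and 291 CPM in old controls and at 38.2, 59.2, 22.9 and 52.2 CPM in young controls. The lowest old library was several times above the highest young one, and the log2 fold change was 2.94 ± 0.35 (SE, n = 3 and 4, edgeR adjusted p = 1.22e-05). Clca3a1, a member of the chloride channel regulator family, stood at 115, 123 and 135 CPM in old against 18.9, 15.3, 17.2 and 9.39 CPM in young HSCs, a log2 difference of 3.03 ± 0.37 (edgeR adjusted p = 2.03e-05). Both genes varied little within the old group.

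Gpr183, the receptor for oxysterols that guides immune cells, lies at chr14:121952551-121965195. It was almost off in young HSCs, with 4.07, 3.14, 0 and 7.93 CPM, and stood at 103, 119 and 174 CPM in old HSCs. The log2 fold change of Gpr183 was 5.08 ± 0.64 (edgeR adjusted p = 2.64e-05) and 5.71 without young control 4. Ramp2, a partner protein of the calcitonin receptor-like receptor, had a similar range: 49.96, 120 and 84.9 CPM in old against at most 5.82 CPM in young controls (log2 fold change 5.14, and 6.08 without young control 4).

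Of 30 genes tested on the platelet and megakaryocyte list, 4 were called higher, namely Cavin2, Selp, Vwf and Gp9, and F2r was called lower. The list's median log2 fold change was 0.20, near that of all genes, and 18 of the 30 were positive. Without old control 1 the list's median was 0.26 and that of all genes -0.35. Without old control 2, 2 of the list were higher. The Gp9 call was lost without any 1 control library other than old control 1 (edgeR adjusted p up to 0.32). Selp encodes P-selectin, the adhesion receptor of platelets and endothelium. It stood at 296, 246 and 216 CPM in old against 50.5, 17.1, 10.7 and 34.4 CPM in young HSCs (log2 fold change 3.16 ± 0.43, edgeR adjusted p = 6.27e-05).

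Cavin2, a caveolar coat protein of platelets and endothelium, stood at 314, 368 and 383 CPM in old against 97.1, 72.7, 90.1 and 78.4 CPM in young HSCs (log2 fold change 2.07). Vwf, which encodes von Willebrand factor, stood at 265, 225 and 157 CPM in old against 56.8, 78.3, 66.4 and 70.7 CPM in young HSCs (log2 fold change 1.66 ± 0.32, edgeR adjusted p = 0.0042). Its adjusted p was 0.053 without old control 2. Vwf and Cldn5, both called higher, are also endothelial genes. The Cldn5 call was lost without old control 2 or old control 3 (adjusted p up to 0.10). The defining endothelial gene Cdh5 was at or below 1.31 CPM in old HSCs and 3.14 CPM in young ones, and Plvap at or below 1.71 CPM and 7.62 CPM. Kdr ranged from 5.52 to 17.6 CPM in old against 4.34 to 13.2 CPM in young HSCs. Stab2 stood at 21.6 CPM in old control 1, at most 1.52 CPM in the other old controls, and 6.28 to 8.41 CPM in young controls. The endothelial list held no other called gene of 16 tested, and its summed level was 881 to 1172 CPM in old controls and 472 to 1046 CPM in young controls. F2r, the thrombin receptor, went the other way: 83.5, 62.4 and 38.4 CPM in old against 470, 392, 188 and 494 CPM in young HSCs (log2 fold change -2.65 ± 0.47, edgeR adjusted p = 0.0017).

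Of 26 glutathione transferases and other detoxifying enzymes tested, 5 were called higher and 0 lower, with a median log2 fold change of 1.14. Left-out libraries moved that count from 2, without young control 1, young control 4, old control 2 or old control 3, to 8 without old control 1. Gstm2, a glutathione transferase, stood at 117, 272 and 278 CPM in old against 11.2, 21.6, 21.98 and 21.6 CPM in young HSCs (log2 fold change 3.54). Sult1a1, a sulfotransferase, stood at 279, 554 and 520 CPM in old against 50.6, 73.3, 100 and 64.9 CPM in young HSCs (log2 fold change 2.64). Old control 1 was the lowest old library for both. Aldh1a1, the retinaldehyde dehydrogenase used as a stem cell marker, was called with a log2 fold change of 1.35 (adjusted p = 0.029). That call was lost without young control 1, young control 3, young control 4, old control 2 or old control 3 (adjusted p up to 0.31).

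Mt1, a metallothionein that binds zinc and copper, stood at 179, 345 and 522 CPM in old against 17.5, 25.4, 60.9 and 16.7 CPM in young HSCs, the only called gene of 17 tested on the metallothionein and zinc list. The log2 fold change of Mt1 was 3.54, and 4.14 without young control 3. Nupr1, a small stress-induced chromatin protein, stood at 225, 551 and 1065 CPM in old against 28.0, 33.7, 81.8 and 26.2 CPM in young HSCs. That of Nupr1 was 3.86, and 3.203 without old control 3. In both genes the old libraries were spread several-fold among themselves, yet none met the young range.

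Other higher genes came from several roles. H2-Eb1, an MHC class II chain, stood at 111, 192 and 193 CPM in old against 42.3, 39.0, 16.97 and 36.2 CPM in young HSCs (log2 fold change 2.29), and was the 1 called gene of 24 on the antigen presentation list, where 18 were positive and the median log2 fold change was 0.71. Without old control 1 that list had 5 higher genes, and DESeq2 called 5 higher and 1 lower. Prtn3, which encodes the primary granule protease proteinase 3, stood at 505, 1053 and 1486 CPM in old against 201, 207, 226 and 228 CPM in young HSCs (log2 fold change 2.23). Apoe, a lipid carrier, stood at 1437, 2432 and 3184 CPM in old against 792, 778, 414 and 759 CPM in young HSCs (log2 fold change 1.78). All 3 were called in each fit that left out a control library. On the list of HSC identity genes, Pdzk1ip1, Sult1a1 and Mycn were called higher and none of the 39 lower by edgeR, with 5 and 6 higher without young control 3 and old control 1. DESeq2 called 6 of them higher and 4 lower.

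Mycn, the Myc family factor of HSCs, stood at 193, 249 and 196 CPM in old against 59.9, 50.7, 13.1 and 59.2 CPM in young HSCs (log2 fold change 2.21, edgeR adjusted p = 0.011, and 0.088 without old control 2). Pdzk1ip1, a membrane-associated protein enriched in HSCs, had a log2 fold change of 1.74, with an adjusted p of 0.11 without old control 3. Plscr2, a phospholipid scramblase, stood at 86.5, 141 and 127 CPM in old against 6.31, 12.1, 4.57 and 7.40 CPM in young HSCs (log2 fold change 3.95). None of the 30 interferon response genes was called by edgeR, with a median log2 fold change of 0.31. At an unadjusted p below 0.05, 6 of them were higher and 2 lower, and DESeq2 called 4 higher and 0 lower. By edgeR 4 were higher when old control 1 was left out.

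Further genes called in each fit without a control library were S100a6 and Susd3. S100a6, a calcium-binding protein, stood at 119, 227 and 243 CPM in old against 27.7, 25.8, 84.9 and 39.1 CPM in young HSCs (log2 fold change 2.15), the 1 called gene of 17 S100 proteins, annexins and galectins tested. Without young control 3 that list had 3 higher and 1 lower, and without old control 1 it had 2 higher and 1 lower. Susd3, a sushi domain protein, stood at 81.4, 163 and 178 CPM in old against 32.7, 25.8, 3.92 and 23.01 CPM in young HSCs (log2 fold change 2.71). Young control 3 was at the edge of the young range in both, highest for S100a6 and lowest for Susd3.

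**Figure D1:**
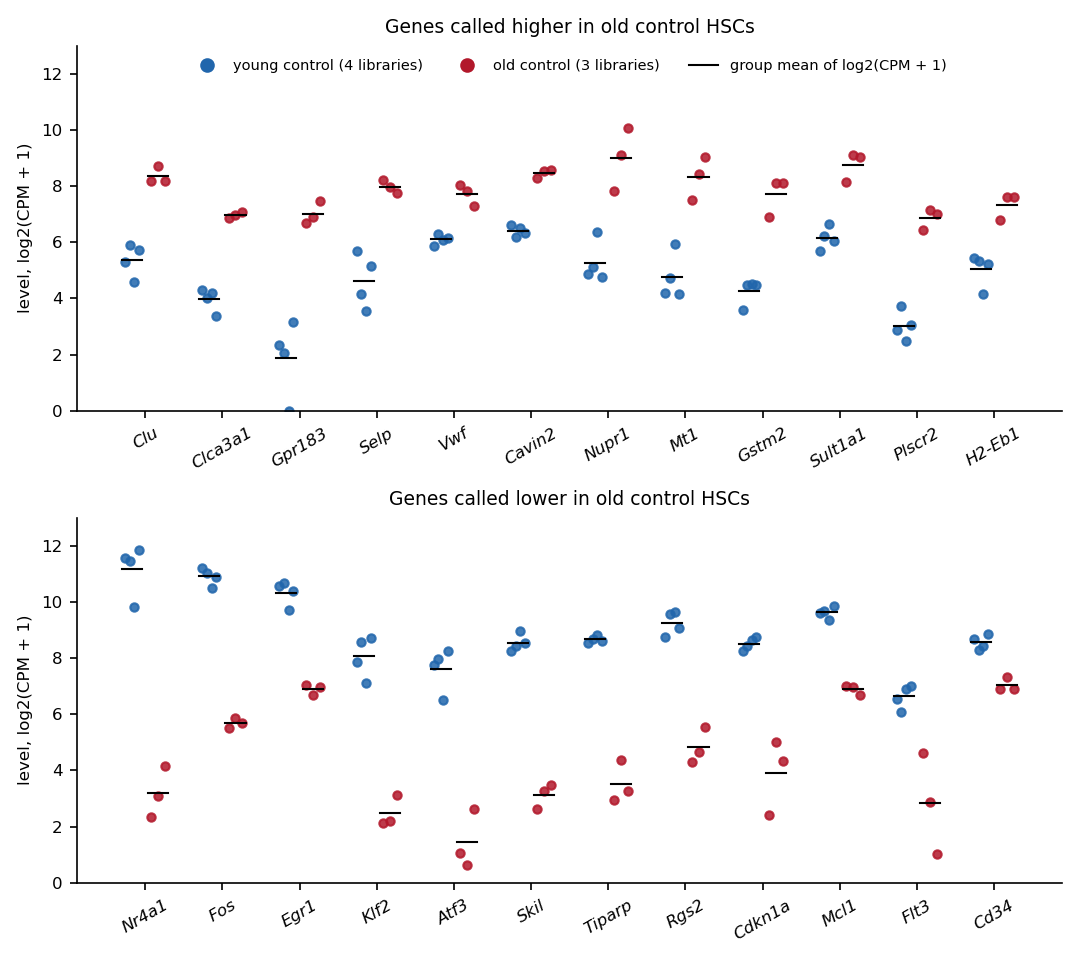
Level of 12 genes called higher (top) and 12 called lower (bottom) in old control HSCs. Each point is 1 library, on the vertical axis as log2(CPM + 1), blue for young control and red for old control, and the bar is the group mean. Red points lie above blue points for each gene in the top panel and below them for each gene in the bottom panel.

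The lower genes were led by immediate early genes. Windows of the RefSeq promoter table (build GRCm38.p6) were matched to 222 of the 287 lower genes and 100 of the 128 higher genes. The 5 below belong to lower genes and show the 150 bases before the RefSeq start, with each TGACG, the first part of the cAMP response element TGACGTCA, in capitals on either strand (CGTCA on the other). Fos is at chr12:85473740-85473889 (plus strand), Junb at chr8:84978749-84978898 (minus), Nr4a2 at chr2:57124004-57124153 (minus), Rgs2 at chr1:144004150-144004299 (minus) and Klf2 at chr8:72318912-72319061 (plus). Klf2 is shown as a lower gene without the letters.
Fos: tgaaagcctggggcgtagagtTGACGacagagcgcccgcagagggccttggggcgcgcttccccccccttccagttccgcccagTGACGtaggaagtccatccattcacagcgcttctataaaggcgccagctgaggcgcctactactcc
Junb: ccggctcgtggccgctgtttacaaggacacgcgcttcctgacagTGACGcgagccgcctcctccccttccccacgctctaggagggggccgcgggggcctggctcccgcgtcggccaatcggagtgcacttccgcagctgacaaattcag
Nr4a2: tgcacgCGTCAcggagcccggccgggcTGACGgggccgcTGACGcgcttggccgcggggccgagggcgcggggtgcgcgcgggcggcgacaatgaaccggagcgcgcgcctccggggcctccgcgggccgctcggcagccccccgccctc
Rgs2: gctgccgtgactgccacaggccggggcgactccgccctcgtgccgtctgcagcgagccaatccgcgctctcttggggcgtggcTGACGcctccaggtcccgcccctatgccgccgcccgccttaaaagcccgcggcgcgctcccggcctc
Klf2: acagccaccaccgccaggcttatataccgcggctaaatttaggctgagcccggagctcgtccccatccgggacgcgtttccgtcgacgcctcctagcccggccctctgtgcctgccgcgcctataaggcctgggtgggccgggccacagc

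Searched on both strands over 250 bases before the start, TGACG was present in 39.2% of the windows of lower genes and 18% of those of higher genes. It was present in 22.9% of the windows of all genes tested and 27.4% of those of protein-coding genes with a mean level above 2 on the log2 CPM scale. Of the lower genes on the 3 immediate early lists, 32 had a matched window, and 18 of these windows held it (56.2%). Shares below are for windows of lower genes, higher genes, all genes tested and protein-coding genes above that level, in that order. The whole element TGACGTCA, which contains TGACG, was found in 5.41, 1, 2.23 and 2.75%. The GC box GGGCGG was found in 73, 51, 48.5 and 59.8%. The AP-1 site TGANTCA was found in 5.86, 7, 5.55 and 3.89%. The CArG box of serum response factor was found in 1.35, 3, 1.2 and 1.03%. Also searched were the TATA box TATAAA (6.76, 2, 5.39 and 3.62%) and the GATA site AGATAA (6.76, 5, 7.5 and 5.66%). The metal response element TGCGCNC was found in 26.1, 28, 18.2 and 22.4%. These matches are of letters and were not tested.

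Of the 12 AP-1 subunits and partners tested, 9 were lower, Fos, Fosb, Atf3, Junb, Jund, Mafk, Fosl2, Jun and Maff, and 1, Batf, was higher, with a median log2 fold change of -2.73. Fos, at chr12:85473890-85477273, stood at 44.1, 58.1 and 50.8 CPM in old controls and 2380, 2088, 1436 and 1903 CPM in young controls. Fosb, its close relative, stood at 9.75, 47.8 and 41.0 CPM in old against 571, 709, 1584 and 816 CPM in young HSCs. Junb, a partner of both, stood at 122, 143 and 85.9 CPM in old against 886, 956, 418 and 1207 CPM in young HSCs. The groups were far apart in each, and the log2 fold changes were -5.26 ± 0.55, -4.81 ± 0.60 and -2.89 ± 0.45 (SE; edgeR adjusted p = 1.94e-06, 2.3e-05 and 0.0004). Atf3, a stress-induced repressor, stood at 1.07, 0.571 and 5.13 CPM in old against 217, 248, 89.2 and 306 CPM in young HSCs. Atf3 had a log2 fold change of -6.59, and -8.01 without old control 3.

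Of 24 genes of the Egr, Nr4a, Klf and other early factors tested, 15 were lower and 0 higher, with a median log2 fold change of -3.50. Nr4a1 encodes an orphan nuclear receptor and lies at chr15:101254269-101274795. Its levels were 4.04, 7.62 and 16.8 CPM in old against 3048, 2780, 911 and 3685 CPM in young HSCs. Its log2 fold change was -8.11 ± 0.71 (edgeR adjusted p = 2.01e-07), and -8.84 without old control 3. Nr4a2, a second receptor of the family, stood at 8.21, 8.95 and 7.43 CPM in old against 130, 140, 245 and 148 CPM in young HSCs (log2 fold change -4.33).

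Egr1, a zinc finger factor that also restrains HSC cycling, stood at 131, 102 and 126 CPM in old against 1524, 1625, 829 and 1343 CPM in young HSCs (log2 fold change -3.48 ± 0.36, edgeR adjusted p = 1.75e-06). Klf2, a quiescence factor of lymphocytes and endothelium, stood at 3.33, 3.62 and 7.78 CPM in old against 230, 380, 136 and 417 CPM in young HSCs (log2 fold change -5.89). Klf4 fell too, from 63.9, 117, 190 and 71.3 CPM in young to at most 1.67 CPM in old controls (log2 fold change -6.98, and -8.12 without old control 1). Mcl1, the survival member of the Bcl2 family, stood at 127, 123 and 103 CPM in old against 780, 822, 650 and 920 CPM in young HSCs (log2 fold change -2.75 ± 0.33). It was the 1 called gene of 17 tested Bcl2 family members.

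The feedback regulators that follow the early factors were lower as well, 18 of 29 tested with 0 higher and a median log2 fold change of -2.50. Skil, which represses SMAD signalling, stood at 5.23, 8.57 and 10.3 CPM in old against 301, 341, 502 and 370 CPM in young HSCs (log2 fold change -5.57 ± 0.48, edgeR adjusted p = 2.01e-07). Tiparp, an ADP-ribosyltransferase induced by the aryl hydrocarbon receptor, stood at 6.78, 19.6 and 8.66 CPM in old against 374, 404, 448 and 393 CPM in young HSCs (log2 fold change -5.12, and -5.74 without old control 2). The 4 young libraries were close to each other in both genes. Rgs2, a brake on G protein signals, stood at 18.9, 24.0 and 45.8 CPM in old against 432, 758, 794 and 531 CPM in young HSCs (log2 fold change -4.41).

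Inflammatory feedback genes gave 6 lower and 0 higher of 24 tested on the NF-kB and inflammatory list, with a median log2 fold change of -0.84. The 6 were Nfkbiz, Nfkbid, Tnfaip3, Socs3, Rel and Ptgs2. Nfkbiz, an atypical IkB protein, stood at 14.7, 15.4 and 21.04 CPM in old against 197, 140, 190 and 182 CPM in young HSCs (log2 fold change -3.37 ± 0.37, edgeR adjusted p = 2.96e-06). Tnfaip3, the ubiquitin-editing inhibitor A20, had a log2 fold change of -3.28 (-3.89 without old control 1). Socs3, the inhibitor of cytokine receptor signals, had one of -5.75 (-5.11 without old control 1). Ptgs2, the inducible cyclooxygenase, was at 0, 0 and 1.06 CPM in old against 28.3, 42.2, 19.4 and 30.8 CPM in young HSCs (log2 fold change -6.44). The size of that difference rests on few reads in old control 3. Leaving out that library moved it to -10.73, and leaving out old control 1 to -5.70.

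Brakes on the cell cycle were among these genes. Of 21 cyclin-dependent kinase inhibitors and quiescence genes tested, 5 were lower and 0 higher, namely Egr1, Hes1, Cdkn1a, Btg1 and Btg2, with a median log2 fold change of -1.07. Cdkn1a, the p21 inhibitor, stood at 4.28, 31.6 and 19.1 CPM in old against 300, 341, 398 and 429 CPM in young HSCs. Its log2 fold change was -4.33 ± 0.64 (edgeR adjusted p = 0.0002), and -4.98 without old control 2. Btg2, an antiproliferative partner of the deadenylase complex, stood at 13.7, 38.3 and 48.8 CPM in old against 259, 246, 286 and 261 CPM in young HSCs (log2 fold change -2.97).

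The proliferation lists held few called genes. Of 24 mitosis genes tested, Mki67, the Ki-67 antigen of cycling cells, was called lower and none higher by edgeR, with 2 higher and 4 lower at an unadjusted p below 0.05 and 1 in each direction by DESeq2. Mki67 stood at 45.0, 36.9 and 59.4 CPM in old against 132, 152, 203 and 98.4 CPM in young HSCs (log2 fold change -1.63 ± 0.33, edgeR adjusted p = 0.0075, and 0.14 without old control 2). Of 28 G1 cyclin and S phase genes, Mcm4, a replicative helicase subunit, was called lower (log2 fold change -2.01, edgeR adjusted p = 0.021). Its call was lost without young control 1, old control 2 or old control 3, with an adjusted p of up to 0.16. The list had 4 lower genes without young control 3. At an unadjusted p below 0.05, 1 was higher and 7 lower, and DESeq2 called 3 lower.

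Some ligands and regulators of other pathways were lower. On the TGF-beta list of 22 genes, 3 were lower, Skil, Smad7 and Tgfb1, with a median log2 fold change of -0.91 and 2 positive. At an unadjusted p below 0.05, 9 of that list were lower and 0 higher, and DESeq2 called 4 lower and 0 higher. Vegfa, the angiogenic growth factor, stood at 6.90, 4.57 and 6.90 CPM in old against 182, 159, 127 and 228 CPM in young HSCs (log2 fold change -4.82 ± 0.56, edgeR adjusted p = 8e-06). It was the 1 called gene of 22 on the hypoxia list, which had 2 lower when old control 1 was left out. Per1, a repressor of the circadian clock, stood at 14.3, 9.71 and 12.0 CPM in old against 169, 139, 167 and 282 CPM in young HSCs (log2 fold change -3.97). The clock list of 18 genes had 3 lower, Per1, Bhlhe40 and Nr1d2. The times of day of the sorts are not in the labels, and whether they differed was not tested.

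Other lower genes outside these lists, or on lists with few calls, also stood below the young range in every old library. Ctla2a, a cathepsin inhibitor of haematopoietic cells, stood at 138, 270 and 324 CPM in old against 2144, 2827, 2515 and 2899 CPM in young HSCs (log2 fold change -3.41 ± 0.35, edgeR adjusted p = 1.52e-06). Fbxo30, a ubiquitin ligase subunit, and Mapk6, the atypical MAP kinase ERK3, had log2 fold changes of -3.92 and -3.64. Ccnl1, a cyclin of RNA processing, stood at 188, 162 and 215 CPM in old against 766, 709, 695 and 802 CPM in young HSCs (log2 fold change -1.98). It led the transcription elongation list, where Ccnl1, Aff4 and Ccnt1 were lower, 3 of 22 tested with 0 higher. Dnajb9, a chaperone of the endoplasmic reticulum, stood at 14.9, 12.2 and 10.6 CPM in old against 100, 102.5, 110 and 105 CPM in young HSCs (log2 fold change -3.06). The heat shock and chaperone list of 26 had Dnajb9, Dnajb1 and Hspa4 lower and 0 higher. The Hspa4 call was lost when old control 3 was left out (edgeR adjusted p = 0.071).

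Of 16 progenitor and multilineage surface genes tested, Flt3 and Cd34 were called lower and Cd63, a tetraspanin, higher, with a median log2 fold change of -0.73. Cd63 stood at 511, 1338 and 1711 CPM in old against 424, 465, 350 and 462 CPM in young HSCs (log2 fold change 1.48), and its call was lost when old control 2 or old control 3 was left out (edgeR adjusted p up to 0.30). Flt3, the cytokine receptor that marks multipotent progenitors, lies at chr5:147330741-147400489. It stood at 23.9, 6.28 and 1.06 CPM in old against 93.3, 66.0, 119 and 129 CPM in young HSCs. Its log2 fold change was -3.27 ± 0.62 (edgeR adjusted p = 0.0037), and -4.75 without old control 1. Cd34, a sialomucin that rises as HSCs become short-term, stood at 119, 158 and 117 CPM in old against 407, 312, 341 and 467 CPM in young HSCs (log2 fold change -1.54 ± 0.28, adjusted p = 0.0031, and 0.061 without old control 3). Of 25 lymphoid priming genes tested, Flt3 was the 1 called, with 2 lower when old control 1 was left out.

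Among 22 genes that are recurrently mutated in clonal haematopoiesis and related blood cancers, 3 were lower, with a median log2 fold change of -0.48. Tet2, which oxidises methylated cytosine, stood at 13.9, 21.9 and 12.0 CPM in old against 46.1, 74.9, 74.0 and 76.3 CPM in young HSCs (log2 fold change -2.09, edgeR adjusted p = 0.0069, and 0.094 without old control 3). Stag2, a cohesin subunit, and Kdm6a, a histone demethylase, had log2 fold changes of -1.43 and -1.70. The Stag2 call was lost without young control 1, old control 2 or old control 3 (adjusted p up to 0.19). The Kdm6a call was lost without young control 1 or any 1 old control (adjusted p up to 0.18). The list had 1 lower gene without young control 1 or old control 2 and 0 without old control 3.

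The sex of the mice is not in the labels. Of 9 sex-linked genes tested, 3 were lower and 0 higher, Ddx3y, Kdm6a and Ddx3x, with 1 lower without young control 1 or any 1 old control. The log2 fold change was above 0 for 1 of the 9, at 2.71, without a call. Every old library lay above every young one for 1 of the 9 genes and below for 5. Over all genes tested, 5.04% had such a gap upwards and 6.5% downwards. Ddx3y, a helicase gene of the Y chromosome, stood at 30.7, 33.9 and 30.6 CPM in old against 106, 125, 164 and 110 CPM in young HSCs (log2 fold change -1.99). Its X-linked counterpart Ddx3x had a log2 fold change of -1.33 (edgeR adjusted p = 0.044), and its call was lost without any 1 control library (adjusted p up to 0.29).

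Some genes were at or near 0 reads in one group. Agtr1a, an angiotensin receptor, stood at 29.5, 28.7 and 7.78 CPM in old controls and had 0 reads in all 4 young controls. Set against 3 reads over the young group, it was at least 207-fold higher in old. Zg16, a lectin of secretory granules, stood at 26.0, 34.9 and 52.0 CPM in old against at most 1.32 CPM in young HSCs (log2 fold change 5.78, and 6.37 without young control 4). Rasl11b, a Ras-like GTPase, had 0 reads in all 3 old controls and 32.2, 46.0, 18.3 and 62.7 CPM in young controls, at least 271-fold lower in old against 3 reads over the old group. Iqcn was at least 85.8-fold lower on the same scale.

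Lists of small, abundant proteins leaned upwards with few calls. Of 77 mitochondrial ribosome genes tested, Mrps35, Mrps18a and Mrpl17 were called higher and 0 lower, with a median log2 fold change of 0.80, and 73 were positive. That count was 18 without old control 1, 6 without young control 3, 1 without any 1 of the other young controls, and 0 without old control 2 or old control 3. The 36 nuclear genes of complex I had no called gene and a median of 0.63, and 35 were positive. At an unadjusted p below 0.05, 7 of them were higher and 1 lower, and DESeq2 called 2 higher. Over all 24523 genes tested, 1659 were higher and 1828 lower at that p, and DESeq2 called 556 higher and 707 lower. The 81 cytosolic ribosomal protein genes had none called and a median of 0.46, with 77 positive. Of these, 12 were higher and 0 lower at an unadjusted p below 0.05, and DESeq2 called 4 higher. The 33 proteasome genes gave 1 called higher, Psme2, and a median of 0.50. Mrps35, a protein of the small mitochondrial ribosome subunit, stood at 100, 169 and 176 CPM in old against 59.4, 51.6, 30.03 and 48.4 CPM in young HSCs (log2 fold change 1.65, edgeR adjusted p = 0.0064). Without either old control 2 or old control 3 the adjusted p was 0.10.

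These counts depended on the libraries that stood apart. With young control 3, old control 1 and young CCCP 3 all left out, an alternative chosen after seeing the data, 54 mitochondrial ribosome, 31 complex I, 75 cytosolic ribosomal protein and 17 proteasome genes were called higher and 0 of these lists lower. In that fit 1413 genes were higher and 1107 lower in all. The 12 genes of the mitochondrial genome that were tested had none called by edgeR or DESeq2 and none at an unadjusted p below 0.05. Their median was -0.27, and 0.89 without young control 3. The mitochondrial DNA encoded gene mt-Nd1 stood at 559, 1608 and 1597 CPM in old against 889, 1011, 4592 and 754 CPM in young HSCs. Its log2 fold change of -0.53 turned to 0.51 without young control 3.

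**Figure D2:**
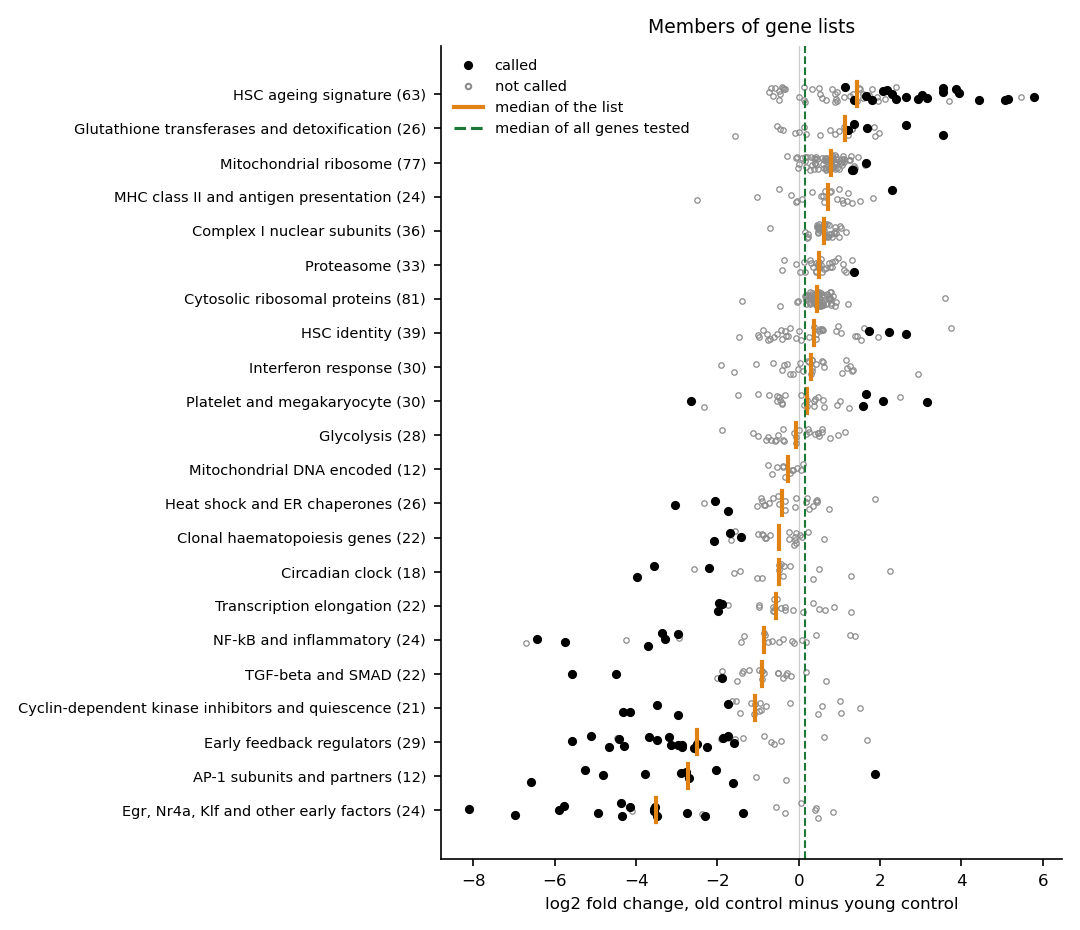
Log2 fold change (old control minus young control, horizontal axis) of the members of 22 gene lists, with the number of members tested in brackets. Filled points were called, open points were not, the orange bar is the list's median and the dashed line is the median of all genes tested, 0.16. The HSC ageing list sits to the right of the line, and the 3 lists of immediate early genes sit to the left at medians of -2.50 to -3.50.

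The direction of change varied with exonic length, the bases covered by any annotated exon of a gene. The 11810 protein-coding genes with a mean level above 2 on the log2 CPM scale were split by exonic length into 5 groups of about equal size. From the shortest to the longest group, the median log2 fold change was 0.55, 0.08, -0.15, -0.28 and -0.35. The shortest group, up to 2646 bases, held 65 higher and 27 lower genes, and the longest, from 8110 bases, held 6 higher and 90 lower genes. The comparison of old Mito-Q with young CCCP libraries, which shares no library with the controls, gave medians of 0.42 and -0.29 in these 2 groups. The median exonic length was 2138.5 bases for higher and 5999 bases for lower protein-coding genes, against 4265.5 bases for all tested.

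The share of reads on short genes also differed between libraries within a group. The shortest group took 26.9, 37.9 and 39.6% of the summed CPM of these genes in old controls 1 to 3 and 23.5, 26.1, 32.8 and 22.6% in young controls 1 to 4. The longest group took 18.1, 11.04 and 11.5% in old and 18.1, 17.5, 19.8 and 18.2% in young controls. Old control 1 resembled the young libraries in both shares. The median exonic length was 4413 bases for the HSC ageing list, 2533 bases for the mitochondrial ribosome, 1643.5 bases for complex I and 1770 bases for cytosolic ribosomal proteins. Among lists with a median below 0, it was 6936 bases for clonal haematopoiesis, 6546 bases for transcription elongation and 5976.5 bases for TGF-beta. The immediate early lists were shorter, at 2473 bases (AP-1), 3445.5 bases (Egr, Nr4a, Klf and other early factors) and 3132 bases (feedback regulators). The part of length in the list medians was not tested.

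**Figure D3:**
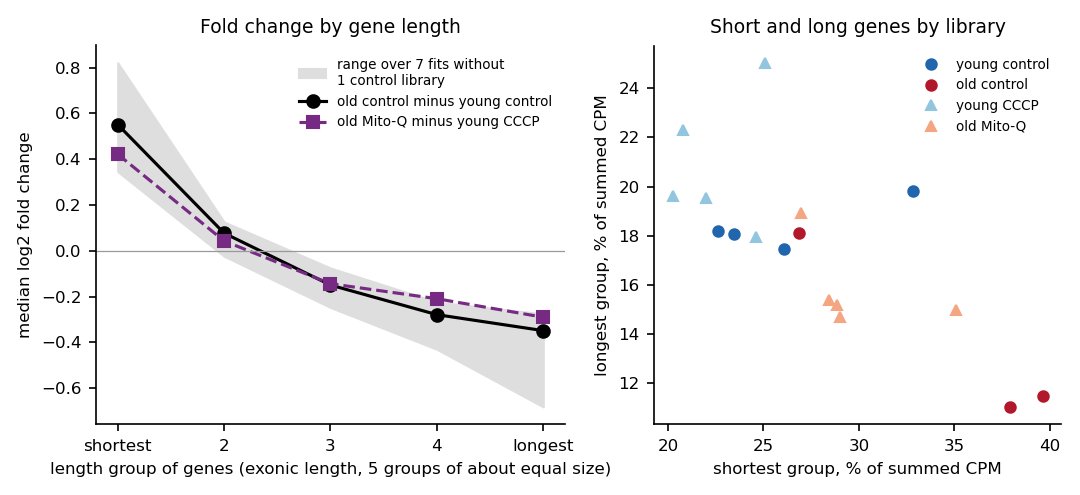
Left, the median log2 fold change (vertical axis) of protein-coding genes in 5 groups of exonic length (horizontal axis), for old against young controls (black) and old Mito-Q against young CCCP (purple), with the grey band spanning the 7 fits without 1 control library. Right, the share of summed CPM in the shortest group (horizontal) and the longest group (vertical), 1 point a library; old controls 2 and 3 lie at the lower right, and old control 1 lies among the young controls.

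The treated libraries gave a second comparison of old with young cells. Between old Mito-Q and young CCCP libraries 278 genes were higher (1.13%) and 59 lower (0.241%), 1.37% in all. Age and drug cannot be told apart in it. The summed neutrophil list (Neutrophil and secondary granule) was 589 to 16000 CPM in young CCCP and 377 to 13660 CPM in old Mito-Q libraries, against at most 2318 CPM in a control, and its part in this comparison was not tested. Of the 128 genes higher in old controls, 109 had the same sign there (85.2%), 38 were called again in the same direction and 0 in the opposite one. Of the 287 lower genes, 97 had the same sign (33.8%), 7 were called lower again and 95 were called higher. Over all genes tested, 52.8% had the same sign in both comparisons.

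In the treated libraries 24 of the 63 members of the ageing signature were higher and 0 lower. These included 17 of the 20 called between controls, all but Ehd3, Vwf and Zg16. Clu stood at 359 ± 94.0 CPM (SD, n = 5) in old Mito-Q and 51.2 ± 16.2 CPM (SD, n = 5) in young CCCP libraries, a log2 fold change of 2.81 against 2.94 between controls. Gpr183 stood at 112 ± 45.7 and 4.75 ± 1.53 CPM (log2 fold change 4.56), and Mt1 at 311 ± 146 and 24.0 ± 10.7 CPM (3.70). The 7 genes lower in both comparisons were Flt3, Cd34, Mki67, Chtf8, Ddb1, Cnot1 and Tmpo. Flt3 stood at 11.1 ± 2.20 CPM in old Mito-Q and 57.3 ± 14.1 CPM in young CCCP libraries (log2 fold change -2.36, edgeR adjusted p = 0.0065). Cnot1, the scaffold of the main deadenylase complex, stood at 79.8, 70.3 and 57.3 CPM in old against 240, 235, 224 and 183 CPM in young HSCs. Between controls its adjusted p rose to 0.055 and 0.075 when old control 2 or old control 3 was left out.

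The difference between these age comparisons was itself tested, as the log2 fold change between controls minus that between treated libraries. It was called for 308 genes (1.26%), with 36 differences above 0 (0.147%) and 272 below 0 (1.11%). Of the 287 genes lower in old controls, 170 had a called difference (59.2%), against 13 of the 128 higher genes (10.2%). Fos stood at 4772 ± 1205 CPM in old Mito-Q and 15.03 ± 11.7 CPM in young CCCP libraries, so that its log2 difference was -13.57 (edgeR adjusted p = 3.38e-11). In the treated comparison 8 of the 12 AP-1 genes, 18 of the 24 early factors and 21 of the 29 feedback regulators were called higher and 0 lower.

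A few higher genes also differed. Smim6, a small membrane protein, stood at 45.9, 174 and 170 CPM in old against 21.03, 13.4, 23.3 and 16.5 CPM in young HSCs, against 56.9 ± 15.04 CPM in old Mito-Q and 37.4 ± 12.9 CPM in young CCCP libraries (difference of log2 fold changes 2.20, edgeR adjusted p = 0.040). For Mycn the difference was 3.10 (edgeR adjusted p = 0.0043), with 96.7 ± 31.4 CPM in old Mito-Q and 179 ± 85.4 CPM in young CCCP libraries. Snhg20, a small nucleolar RNA host gene, had a log2 fold change of 2.38 between controls and -0.84 between treated libraries. Its adjusted p between controls was 0.059 without old control 3.

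**Figure D4:**
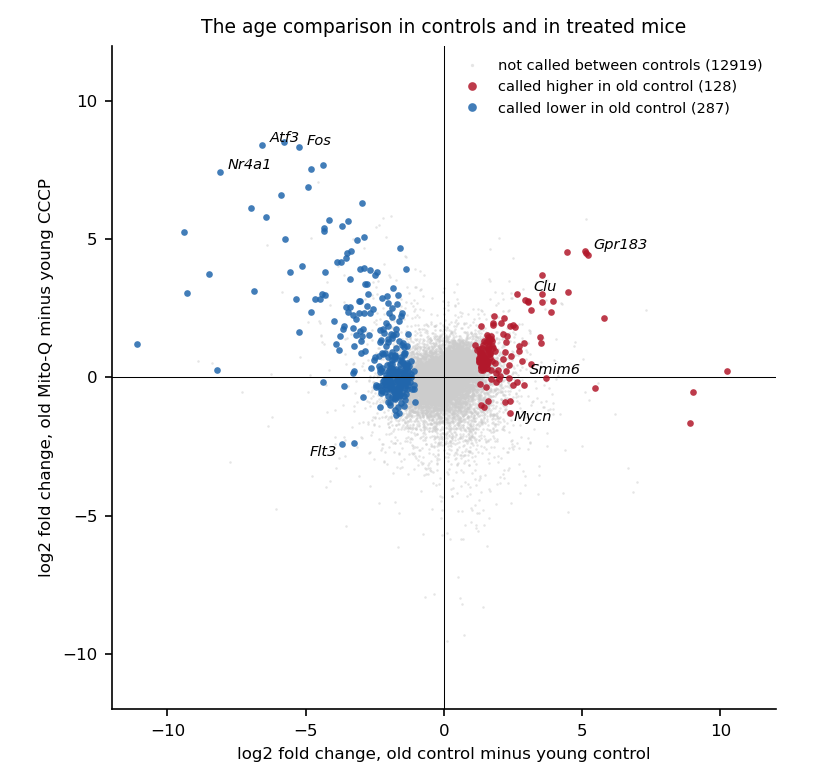
Log2 fold change of each gene between old and young controls (horizontal axis) and between old Mito-Q and young CCCP libraries (vertical axis). Red points were called higher and blue points lower between controls; grey points are other genes with a mean log2 CPM above 2. Most red points lie in the upper right (109 of 128), and most blue points lie in the upper left, with 97 of 287 below 0 on the vertical axis.

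The calls depended on which libraries entered. Leaving out 1 control library at a time gave 29 to 404 higher and 96 to 331 lower genes. Without old control 1, 404 genes were higher and 280 lower, and without old control 2, 29 and 96. Genes called in all 7 such fits numbered 103 (0.42% of genes tested), 24 higher and 79 lower. The 24 included Clu, Clca3a1, Gpr183, Cavin2, Nupr1, Selp, Mt1, Plscr2, Gstm2, Sult1a1, Apoe and H2-Eb1, and the 79 included Nr4a1, Skil, Tiparp, Klf2, Fos, Egr1, Vegfa, Mcl1, Cdkn1a, F2r and Flt3. DESeq2 called 556 genes higher (2.27%) and 707 lower (2.88%), all 128 and all 287 among them. The 7 controls fitted alone gave 40 higher and 146 lower genes, of which 38 and 136 were among those called with all libraries.

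**Figure D5:**
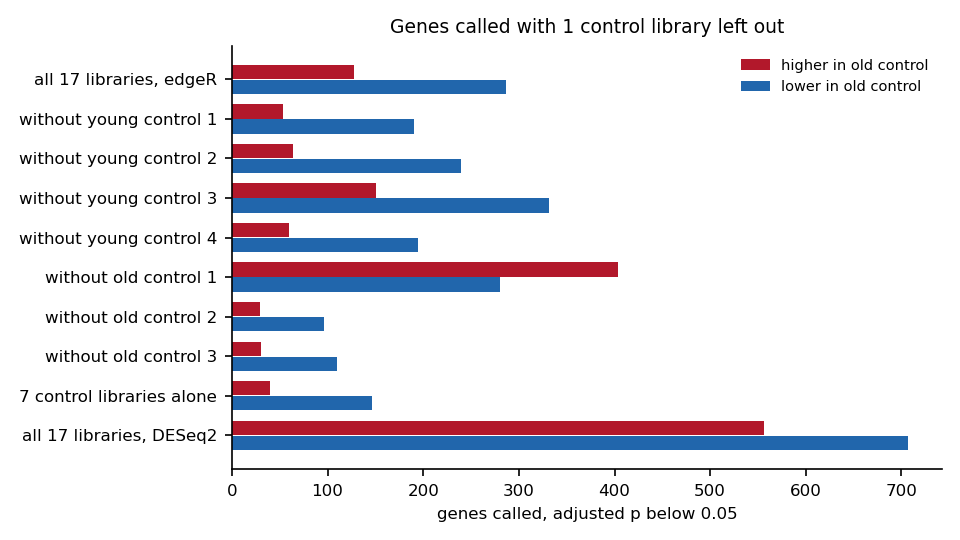
Number of genes called higher (red) and lower (blue) in old control HSCs (horizontal axis, adjusted p below 0.05) with all 17 libraries, without each control library, with the 7 controls alone, and by DESeq2. Higher calls range from 29 without old control 2 to 404 without old control 1 among the edgeR fits, and lower calls from 96 to 331.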

How the data were processed

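RNA-seq libraries of sorted mouse HSCs were analysed from the raw read counts per gene that the authors deposited, 1 table a library. Reads were trimmed with Trim Galore and aligned with STAR 2.7 to GRCm38, per the submitters' processing notes; the counting program, its strand setting and the annotation are not given in the sources used here. Of 54838 genes, 54809 matched GENCODE identifiers on that build. The 5 footer rows were left out of totals and tests.

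Libraries were grouped by title. All 17 were fitted together in edgeR 4.0.16 (R 4.3.3) with a term per group, TMM factors, filterByExpr at a minimum count of 10, a robust quasi-likelihood fit and Benjamini-Hochberg adjustment over 24523 genes. Contrasts were old control minus young control, old Mito-Q minus young CCCP, and their difference. The fit was also run on counts simulated from its own mean levels and dispersions, with changes planted in some genes. No simulated library stood apart, so that run cannot tell how the libraries that stood apart affect the calls. The level of 3 reads covers counting error only, and SD measures the spread among libraries of a group. The SE of a log2 fold change was derived from the F statistic of the test. It thus rests on the spread estimated over all 17 libraries.

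The members and gene lists were chosen with earlier results of these data known, so lists are given by counts and medians. The 263 named genes are the called genes of smallest p and of largest change in every fit without a control library, called or most abundant members of each list, gate and marker genes, and genes called alike or differing between the age comparisons. List members without values, Iqcn and genes at 0 were named after their values were seen. Replicate numbers were not used as pairs in the main fit. Correlations of same-numbered old and young controls, as deviations from group means, were 0.054, -0.11 and 0.12. Those of differently numbered ones lay between -0.14 and 0.15. With so few libraries these values cannot tell whether equal numbers shared a preparation. Alternatives were other scaling factors, filters, DESeq2 1.42.0, limma-voom (limma 3.58.1), a replicate block, the 7 controls alone and leaving out each library. An adjusted p that DESeq2 leaves undefined was not counted as a call. One marker gene is not reported here.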

Additional observations from a re-analysis of the deposited data

Results flagged for a closer look

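In the control groups of 4, 80 measures were examined and 11 had 1 library far from the other 3. Chance sets apart about 1 in 20 such groups. Young control 3 was the library in 8 of them. Its summed HSC ageing list was lowest at 3415 CPM, its summed mitochondrial DNA encoded list was highest at 31230 CPM, and mt-Nd1 was highest at 4592 CPM. It was also highest for Nupr1 (81.8 CPM), Pdzk1ip1 (465 CPM) Nr4a2 (245 CPM) and Ddx3x (422 CPM), and lowest for Apoe (414 CPM). Young control 1 had the highest summed neutrophil and secondary granule list at 2318 CPM and the lowest Gstm2 (11.2 CPM) and Tet2 (46.1 CPM).

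The log2 fold change of old over young differed between the control and the treated comparison, by edgeR's test of the difference, for 35 of the 73 genes described singly. The difference was above 0 for Smim6 (2.20), Snhg20 (3.22), Mycn (3.10) and Agtr1a (10.04). It was below 0 for the AP-1 genes Fos (-13.57), Fosb (-12.36), Junb (-7.96) and Atf3 (-15). Other early factors gave -9.13 for Egr1, -15.53 for Nr4a1, -9.74 for Nr4a2, -12.50 for Klf2, -13.11 for Klf4 and -5.75 for Mcl1. Feedback genes gave -9.37 for Skil, -9.14 for Tiparp, -7.41 for Rgs2, -7.93 for Nfkbiz, -5.06 for Tnfaip3, -10.76 for Socs3 and -9.28 for Btg2. The rest were Ptgs2 (-12.25), Cdkn1a (-9.61), Vegfa (-7.18), Per1 (-6.01), F2r (-2.995), Rasl11b (-12.32) and Ddx3y (-2.24), with Ddx3x (-2.47), Ctla2a (-6.955), Fbxo30 (-5.137), Mapk6 (-5.374), Ccnl1 (-4.289), Dnajb9 (-4.735) and Hspa4 (-3.317). The fitted values of Agtr1a and Rasl11b, each at 0 reads in a control group, depend on the prior count.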

How the results depend on the processing

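The 415 calls between controls became 1263 with the DESeq2 test, 186 with the 7 controls alone, 167 with the 7 controls alone and the replicate block, and 2520 without young control 3, old control 1 and young CCCP 3, the last 2 alternatives being chosen after seeing the data. Leaving out 1 of 17 libraries gave 125 to 755 calls, with the ends reached without old control 2 and without young CCCP 3. The 45 genes called alike in both age comparisons became 20 at an adjusted p below 0.01, 135 with the DESeq2 test and 601 without those 3 libraries, and 20 to 79 with 1 library left out. The 308 genes whose age comparisons differed became 192 at an adjusted p below 0.01, 543 with no filter, 708 with the DESeq2 test, 583 without the 3 libraries and 234 to 361 with 1 left out. Lists with at least 3 called members in 1 direction numbered 17, and 37 with the DESeq2 test, 10 with the 7 controls alone, 9 with the block as well, 50 without the 3 libraries and 8 to 29 with 1 left out. The cause of these moves was not tested.

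With the replicate block in the fit of all libraries, the 4 counts were 404, 54, 298 and 19. Other scaling factors, the minimum count of 30 and limma-voom left each of these counts within 1.5 times its value. No called change among the 263 named genes changed sign under any alternative run. Calls lost among them numbered 0 with the DESeq2 test, 26 with limma-voom, 49 with the 7 controls alone, and 52 and 51 without old control 2 and old control 3. Depth limits the lowest genes: 3 reads stand for 0.298 to 0.653 CPM, and levels under that could not be told from 0.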
